A study of Mus musculus with 6 samples.

Results

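The genes described here are 31 genes of the mevalonate pathway, of the sterol and isoprenoid branches that leave it, and of the control of SREBP2, out of 27151 genes in a table from mouse ovarian granulosa cells. They were chosen by name from a list that was drawn up with earlier results of these data known, and each of the 31 was found in the table by its GENCODE M21 symbol. With GSK4112, 24 of the 31 had a lower mean log2(FPKM + 1) than in control cells and 7 a higher one (Hsd17b7, among the 24, had the higher mean FPKM), and most of the 24 were enzymes that lead to cholesterol. No gene among the 29 that could be tested passed the threshold in limma, where 1.03% of all tested genes did. Of the 29, 22 had a log2 difference below 0 (75.9%), against 39.1% of all tested genes. At an unadjusted p under 0.05 in limma there were 4 (13.8%), no more than the 17.0% of all tested genes. In a limma model that blocks on replicate number, 3 enzyme genes, Acat2, Nsdhl and Sc5d, were called lower (10.3%), where 3.82% of all tested genes were. The labels do not pair the libraries, and correlations between libraries could not decide how replicates 2 and 3 pair. A block with these swapped was not tested. The list does not hold every enzyme of the pathway.

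The study asked how NR1D1 affects the endocrine function of granulosa cells, which nurse the oocyte inside the follicle and produce oestrogen and progesterone. The 3 GSK4112 libraries came from granulosa cells of mouse ovary that were released by puncture of follicles in a medium with milrinone, grown with serum for 24 h, deprived of it for 12 h and exposed to GSK4112 for 24 h in medium renewed every 12 h. The 3 control libraries came from cells handled the same way without GSK4112, and no vehicle is named. GSK4112 activates NR1D1, also called REV-ERBα, a nuclear receptor that binds heme and silences its target genes. The design text speaks of treatment in vivo, whereas the protocol describes cultured cells, and no dose is given here since the labelled unit is not one of concentration. Strain, age and genotype of the mice are not given, nor whether the libraries of a group came from separate animals or cultures, so the p-values reflect variation among these libraries only, and that variation may be technical.

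Every cell builds cholesterol from acetyl-CoA. Acetyl units are joined to mevalonate, mevalonate is turned into isoprenyl diphosphates, and these are joined to squalene, which is folded into lanosterol and trimmed to cholesterol. Side branches lead to the tail of coenzyme Q and to dolichol, the carrier of the sugar chains of glycoproteins. The transcription factor SREBP2 switches on the genes of the pathway when sterols in the endoplasmic reticulum are low: SCAP escorts it to the Golgi, the proteases encoded by Mbtps1 and Mbtps2 release its active part, and the INSIG proteins hold the complex back when sterols are plentiful. In granulosa cells cholesterol is also the raw material of steroid hormones.

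The values are FPKM, fragments scaled to exon length and library size. Exon length counts all annotated exons of a gene and can far exceed its longest coding transcript. It was 4208 against 1382 bases for Fdps, but 4866 against 4787 for Sc5d. Levels can thus be compared only roughly between genes. The libraries held 16559256 to 18158273 fragments, read from the steps of the values. Replicate 1 of each group stood apart from the others, with summed FPKM of 12 mitosis genes of 152 in GSK4112 replicate 1, against 30.7 and 27.9 in the other GSK4112 libraries. In control replicate 1 the sum was 209, against 51.7 and 58.1 in the other control libraries. Of the granulosa markers, 8 of 9 had a mean of at least 1 FPKM, from Fshr at 2.65 to 5.43 up to Hsd3b1 at 982 to 2928, while Amh was under 1 in every library. Their sum was 3294 to 5530 with GSK4112 and 3865 to 6467 in control, lowest in replicate 1 of each group. All 8 tested granulosa markers had a log2 difference below 0, where 39.1% of all tested genes did. Their median was -0.31, against -0.17 for the 29 tested genes of the pathway. The size varied: Hsd3b1, Nr5a1, Inha, Fshr and Foxl2 were at -0.01, -0.03, -0.13, -0.18 and -0.44, and none of these was called. Fst, which encodes follistatin, was called lower (21.3, 25.0 and 25.8 FPKM with GSK4112, 58.4, 73.2 and 89.1 in control, adjusted p = 0.0187 in limma). Inhba, an inhibin and activin subunit, was at 207, 89.0 and 76.6 FPKM with GSK4112 and at 341, 300.3 and 363 in control. It was not called in limma without the block (adjusted p = 0.102) but fell with the replicate number as a block (adjusted p = 0.0266). Cyp11a1, the first enzyme of steroid synthesis, was at 446, 388 and 420 FPKM with GSK4112 and at 559, 889 and 805 in control (adjusted p = 0.103). The summed markers of theca and stroma ran from 78.0 to 149.6 with GSK4112 and from 56.7 to 272 in control, mostly Acta2, with Cyp17a1 at 0 to 0.0555. Summed immune markers ran from 15.7 to 35.9 with GSK4112 and from 6.55 to 38.7 in control, nearly all Lyz2 and Cd68, and endothelial and oocyte markers summed to under 1 and to at most 2.18. Nr1d1, the gene of the receptor, was at 12.0, 11.8 and 11.5 FPKM with GSK4112 and at 9.24, 8.64 and 9.30 in control (adjusted p = 0.0911 in limma).

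Levels among the 31 genes spanned a wide range. Scap was the most abundant in every library, at 83.0, 69.0 and 73.7 FPKM with GSK4112 and at 68.3, 62.1 and 69.5 in control, followed by Srebf2. Among the enzymes Hmgcs1, Fdft1, Msmo1 and Nus1 lay near the top, between 16.3 and 34.1 FPKM in all libraries. Fdps, Pdss1 and Pdss2 were the lowest on average, at 0.328 to 1.92 FPKM. Fdps and Pdss1 had a mean under 1 over the 6 libraries and were left out of the test, which kept 29 of the 31 and 12181 genes in all.

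**Figure D1:**
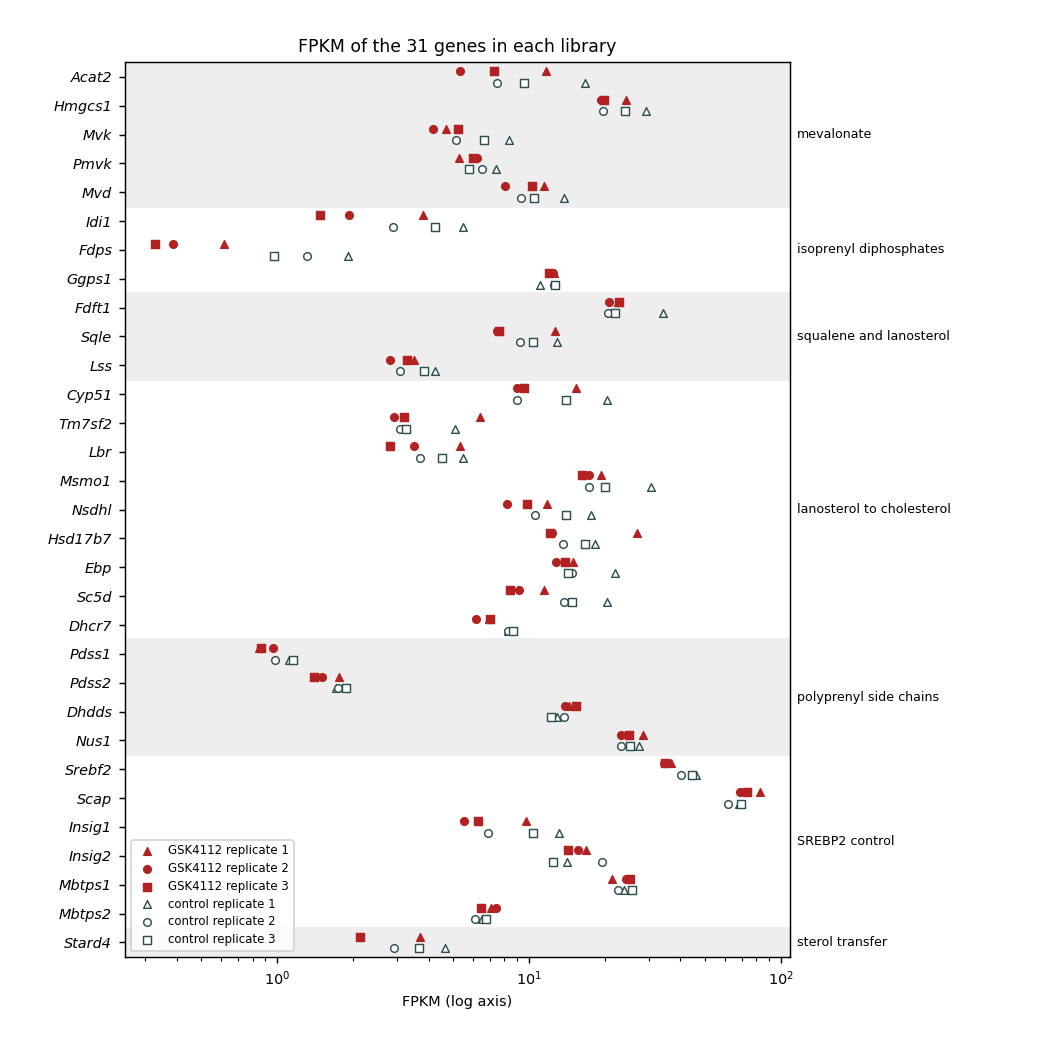
FPKM on a log axis for each of the 31 genes in each library, GSK4112 as filled and control as open symbols, with replicates 1, 2 and 3 as triangles, circles and squares. Genes are grouped by step; the Sc5d, Dhcr7, Srebf2, Fdps and Pdss1 symbols of GSK4112 all lie left of those of control, and replicate 1 lies to the right for many genes of sterol synthesis.

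Promoters are shown for the gene with the largest difference within each step that the RefSeq table covers (GRCm38.p6, from 250 bases before to 50 after the start that RefSeq gives, which can differ from the GENCODE M21 gene bounds printed with the results), together with that of Hmgcs1, which was added after its sequence was seen because it holds a match to the core of a sterol response element. Bases are in lower case along the strand of the gene. Capitals mark the letters CACNCCAC, the core of the element that SREBP binds, and CCAAT, the box bound by NF-Y, a factor known to work with SREBP, each searched on both strands (ATTGG is CCAAT on the opposite strand). These did not overlap in these sequences.
The regions are Hmgcs1 (chr13:119690101-119690400, plus strand), Mvk (chr5:114444019-114444318, plus strand), Idi1 (chr13:8885356-8885655, plus strand), Lss (chr10:76531355-76531654, plus strand), Sc5d (chr9:42264251-42264550, minus strand), Dhdds (chr4:134000833-134001132, minus strand) and Insig1 (chr5:28071162-28071461, plus strand).
Hmgcs1: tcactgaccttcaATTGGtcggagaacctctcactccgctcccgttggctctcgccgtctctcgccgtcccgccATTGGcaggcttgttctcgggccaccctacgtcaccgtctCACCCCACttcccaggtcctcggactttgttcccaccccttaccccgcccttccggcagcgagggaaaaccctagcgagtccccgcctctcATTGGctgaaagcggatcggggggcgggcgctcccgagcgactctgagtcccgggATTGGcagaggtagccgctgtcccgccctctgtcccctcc
Mvk: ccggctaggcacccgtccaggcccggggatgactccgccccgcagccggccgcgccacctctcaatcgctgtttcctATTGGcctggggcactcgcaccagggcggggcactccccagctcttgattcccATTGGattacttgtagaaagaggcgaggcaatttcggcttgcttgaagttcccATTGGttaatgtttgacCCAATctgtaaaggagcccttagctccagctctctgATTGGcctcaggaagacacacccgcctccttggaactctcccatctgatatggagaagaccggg
Idi1: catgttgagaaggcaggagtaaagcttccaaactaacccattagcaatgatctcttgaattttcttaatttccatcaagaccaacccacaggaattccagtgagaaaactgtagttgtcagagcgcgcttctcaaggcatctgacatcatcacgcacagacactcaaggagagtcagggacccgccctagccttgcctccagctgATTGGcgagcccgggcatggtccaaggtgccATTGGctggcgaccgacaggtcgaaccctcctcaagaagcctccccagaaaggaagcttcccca
Lss: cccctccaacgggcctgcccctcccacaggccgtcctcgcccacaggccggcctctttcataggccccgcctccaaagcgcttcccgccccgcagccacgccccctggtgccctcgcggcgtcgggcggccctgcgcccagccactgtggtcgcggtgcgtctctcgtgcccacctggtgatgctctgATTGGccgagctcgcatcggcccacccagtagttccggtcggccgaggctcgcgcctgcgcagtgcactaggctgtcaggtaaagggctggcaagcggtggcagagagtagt
Sc5d: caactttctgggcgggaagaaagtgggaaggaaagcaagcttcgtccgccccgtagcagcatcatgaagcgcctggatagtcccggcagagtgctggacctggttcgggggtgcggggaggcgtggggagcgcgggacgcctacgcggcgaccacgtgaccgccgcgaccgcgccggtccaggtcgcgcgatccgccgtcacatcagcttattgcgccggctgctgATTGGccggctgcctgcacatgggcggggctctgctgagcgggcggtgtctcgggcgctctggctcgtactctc
Dhdds: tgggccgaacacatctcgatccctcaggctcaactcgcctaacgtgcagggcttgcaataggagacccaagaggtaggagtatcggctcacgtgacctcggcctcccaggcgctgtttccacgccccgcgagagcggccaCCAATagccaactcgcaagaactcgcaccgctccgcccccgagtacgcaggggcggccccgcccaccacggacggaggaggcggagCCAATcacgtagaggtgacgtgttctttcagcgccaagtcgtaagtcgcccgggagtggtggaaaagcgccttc
Insig1: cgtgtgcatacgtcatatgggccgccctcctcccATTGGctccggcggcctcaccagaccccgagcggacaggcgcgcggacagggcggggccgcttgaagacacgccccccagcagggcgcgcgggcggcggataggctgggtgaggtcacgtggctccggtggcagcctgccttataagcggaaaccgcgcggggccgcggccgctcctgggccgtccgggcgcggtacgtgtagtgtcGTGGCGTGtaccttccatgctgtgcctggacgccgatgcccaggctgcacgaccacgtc

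Hmgcs1 and Insig1 each held 1 match to CACNCCAC, Hmgcs1 at base 115 of its window and Insig1 at base 242 on the opposite strand. Mvk held 5 CCAAT boxes, Hmgcs1 4, Idi1 and Dhdds 2 each, and Lss, Sc5d and Insig1 1 each. RefSeq promoters were found for 27 of the 31 genes, all but Fdft1, Fdps, Sqle and Stard4, and of these 21 held CCAAT (77.8%), against 43.2% of the 8781 tested genes with a promoter. Counted by promoter, since a gene can have several, CCAAT was in 63.6% of the 33 promoters of these genes and in 37.4% of all 32851 promoters. That reference differs in set as well as in unit, since it is not limited to tested genes. CACNCCAC was found in 3 (11.1%), Acat2, Hmgcs1 and Insig1, against 7.44% of the tested genes (9.09% of the 33 and 6.24% of all promoters). GGGCGG, the GC box of SP1, was found in 23 (85.2%), against 71.5% of the tested genes (78.8% of the 33 and 35.7% of all promoters). Its contrast thus depended on which reference was used. AGGTCA, the half-site that nuclear receptors such as REV-ERB bind, was found in 5 (18.5%), Dhcr7, Dhdds, Hmgcs1, Insig1 and Pdss1, against 14.5% of the tested genes (21.2% of the 33 and 16.3% of all promoters). These are counts of letters, and binding was not measured. Median GC content was 62.0% in the promoters of the 27 genes and 61.3% in those of the tested genes.

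Summed over the 31 genes, the level was 457, 369 and 385 FPKM in GSK4112 replicates 1, 2 and 3 and 514, 392 and 435 FPKM in control replicates 1, 2 and 3. The groups overlapped, since GSK4112 replicate 1 lay above control replicates 2 and 3, but within each replicate number the GSK4112 library was the lower. The steps toward cholesterol had the wider gaps. The 9 genes from lanosterol to cholesterol summed to 119, 81.5 and 83.3 FPKM with GSK4112 and to 148, 94.3 and 111 FPKM in control. The 5 mevalonate genes summed to 57.6, 43.2 and 48.8 FPKM with GSK4112 and to 75.5, 48.1 and 56.5 FPKM in control. In the side branches and in the control genes the sums were close. Polyprenyl side chains had 45.5, 39.7 and 42.7 FPKM with GSK4112 and 43.2, 39.7 and 40.6 FPKM in control. The 6 SREBP2 control genes had 175, 156 and 161 FPKM with GSK4112 and 172, 157 and 169 FPKM in control. Their sum hides opposite differences: mean Srebf2 was 35.4 FPKM with GSK4112 and 43.6 in control, and mean Scap 75.2 and 66.6.

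**Figure D2:**
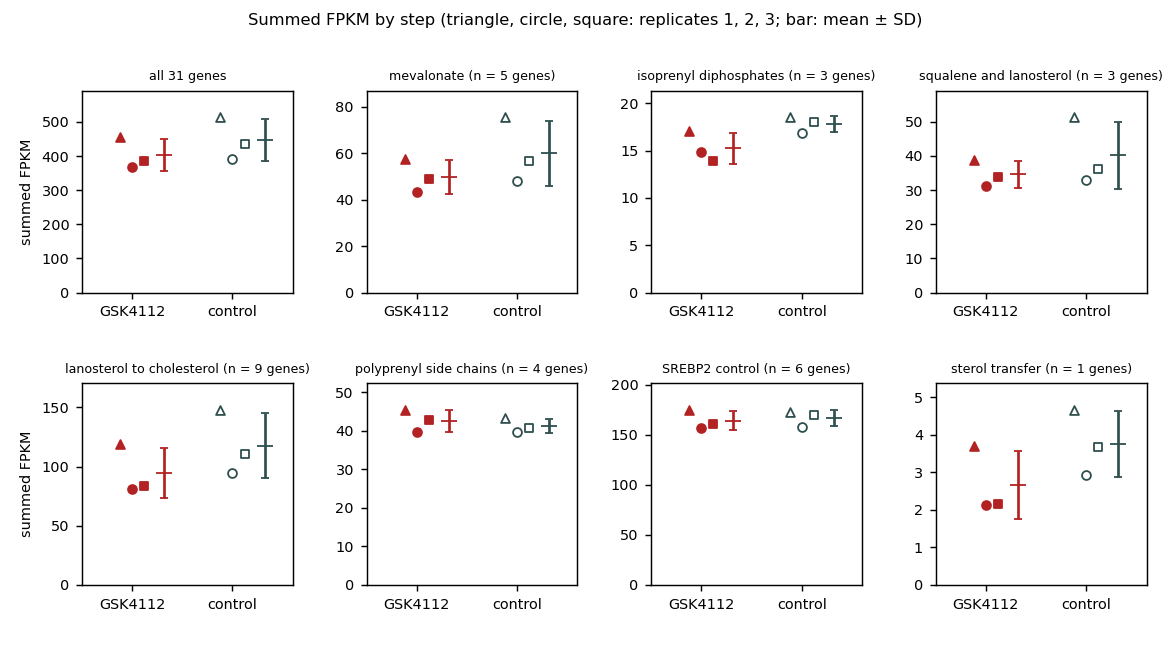
Summed FPKM of all 31 genes and of each step in each library, GSK4112 left of control in each panel, on axes that start at 0; triangles, circles and squares are replicates 1, 2 and 3 and bars the mean ± SD of 3 libraries. Replicate 1 is the highest of its group in every panel, and the 9 genes from lanosterol to cholesterol average 94.6 ± 21.1 FPKM with GSK4112 and 118 ± 27.6 FPKM in control.

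Tested in limma on log2(FPKM + 1), 0 of the 29 genes passed an adjusted p of 0.05, where 126 of all 12181 tested genes did (1.03%). At an unadjusted p under 0.05 there were 4 of 29 (13.8%), namely Mvk, Sc5d, Dhcr7 and Srebf2, against 17.0% of all tested genes, so that share was no higher than the background. Of the 29, 22 had a log2 difference below 0 (75.9%), against 39.1% of all tested genes, and the median was -0.17, against 0.05 over all tested genes. That median was -0.07 without control replicate 1 and -0.30 without control replicate 2 or without GSK4112 replicate 1. In 3 genes (10.3%), Sc5d, Dhcr7 and Srebf2, every GSK4112 library lay below every control library, a share near the 7.9% of all tested genes. In 1 gene (3.45%), Dhdds, every GSK4112 library lay above, against 15.7% of all tested genes. In this bulk RNA fewer cells of a kind and less RNA per cell cannot be told apart.

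**Figure D3:**
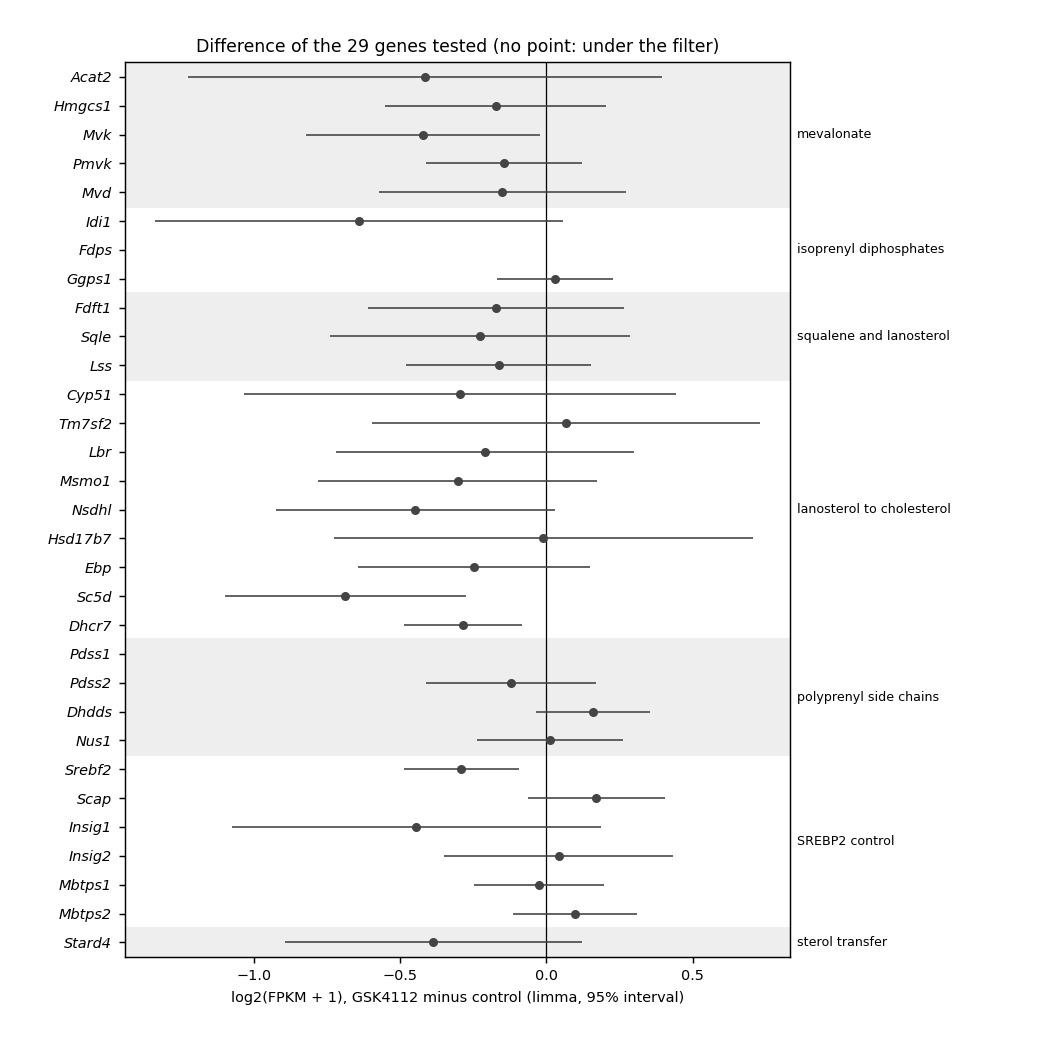
Log2(FPKM + 1) difference, GSK4112 minus control, for each of the 29 tested genes with its 95% interval from limma, grouped by step; Fdps and Pdss1 were under the filter. Intervals of Mvk, Sc5d, Dhcr7 and Srebf2 lie below 0 before adjustment for the number of genes, and the widest, such as those of Acat2, Cyp51, Hsd17b7 and Idi1, belong to genes that are high in replicate 1.

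Libraries of the same replicate number were also set against each other. Of the 29 tested genes, 17 were lower with GSK4112 in all 3 pairs of equal replicate number (58.6%), against 18.6% of all tested genes; the count includes Cyp51 and Msmo1, whose pair 2 was at -0.0005 and -0.0024. Another 2, Dhdds and Scap, were higher in all 3 (6.90%), against 29.8%, Dhdds by only 0.0164 in pair 2. The median difference of the 29 on the log2(FPKM + 1) scale was -0.24, -0.13 and -0.26 in pairs 1, 2 and 3. No label pairs the libraries, and correlations between libraries could not decide how replicates 2 and 3 pair. The choice of the genes was made with earlier results known. Many of the 29 also rose and fell together between libraries, with replicate 1 the highest control library in 21 (72.4%), against 43.2% of all tested genes. Counts over these genes, here and elsewhere, are thus not 29 independent results. With the replicate number as a block in limma, 3 of 29 fell (10.3%), against 3.82% of all tested genes, and 0 rose, against 3.07%. The mitosis genes, whose sums are given above and were lower with GSK4112 in each pair, had 12 of 12 log2 differences below 0, and 6 of 12 fell with the block. The part of these genes, of the granulosa markers, and of the theca, stroma and immune markers that were also high in replicate 1, in the differences of the sterol genes was not tested.

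**Figure D4:**
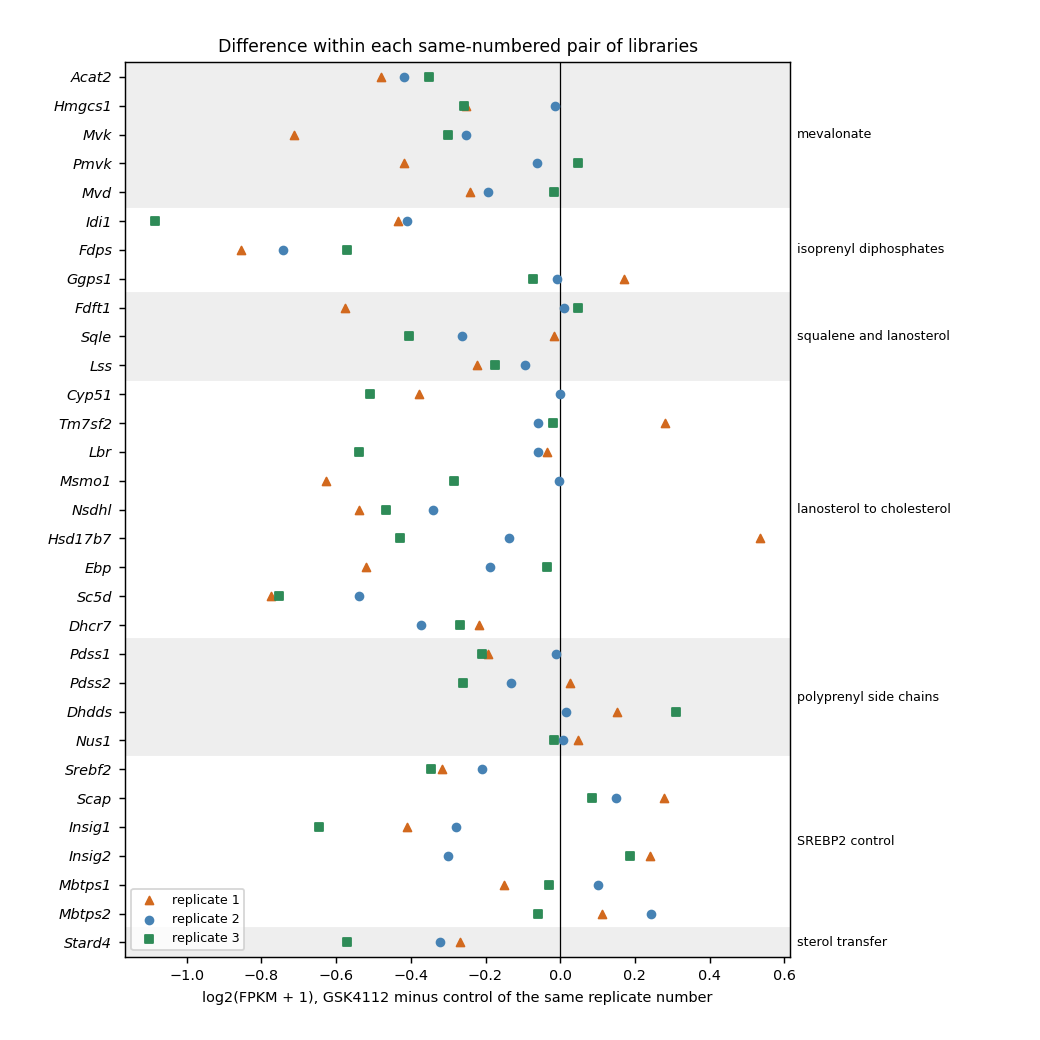
Log2(FPKM + 1) difference, GSK4112 minus control of the same replicate number, for the 31 genes, with triangles, circles and squares for replicates 1, 2 and 3. Acat2, Idi1, Fdps, Nsdhl, Sc5d, Insig1 and Stard4 are among the genes with all 3 symbols left of 0, while Hsd17b7 and Tm7sf2 lie right of 0 in replicate 1 alone.

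The first enzymes make mevalonate and activate it. Acat2, the thiolase that joins acetyl units in the cytosol (ENSMUSG00000023832, GRCm38 chromosome 17, 12942890 to 12960747, minus strand), had 11.7, 5.34 and 7.26 FPKM with GSK4112 and 16.7, 7.47 and 9.54 FPKM in control. The groups overlapped, and replicate 1 was 1.86 times the mean of the others with GSK4112 and 1.96 times in control. Its log2 difference was -0.42 ± 0.34 (SE, adjusted p = 0.578 in limma), and within pairs it was -0.48, -0.42 and -0.35, and it fell with the block (adjusted p = 0.0401). Of the longest Acat2 transcript, 65.6% matches Acat3 at 95% identity or more, so its value is uncertain; Acat3 was at 0.0988 to 0.303 FPKM.

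Hmgcs1, which makes HMG-CoA, had 24.4, 19.4 and 20.0 FPKM with GSK4112 and 29.2, 19.6 and 24.0 FPKM in control (adjusted p = 0.615). Mvk, the kinase that phosphorylates mevalonate (ENSMUSG00000041939, chromosome 5, 114444269 to 114460591, plus strand), had 4.71, 4.15 and 5.23 FPKM with GSK4112 and 8.36, 5.13 and 6.67 FPKM in control. Only the highest GSK4112 and the lowest control value crossed, and the log2 difference was -0.42 ± 0.168 (adjusted p = 0.276). Mmab, a cobalamin gene that starts next to Mvk on the opposite strand and is given for that position, was at 6.71, 5.68 and 6.30 FPKM with GSK4112 and at 8.12, 7.07 and 7.01 FPKM in control (adjusted p = 0.331). For Pmvk and Mvd, the next kinase and the decarboxylase that ends the mevalonate steps, the groups overlapped, with means of 5.83 ± 0.486 and 9.97 ± 1.79 FPKM with GSK4112 and 6.57 ± 0.803 and 11.2 ± 2.35 FPKM in control (SD, n = 3).

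The isoprenyl diphosphates come next. Idi1, the isomerase that makes the building blocks ready to be joined (ENSMUSG00000058258, chromosome 13, 8885501 to 8892451, plus strand), had 3.81, 1.93 and 1.48 FPKM with GSK4112 and 5.50, 2.89 and 4.25 FPKM in control. GSK4112 replicate 1, at 2.24 times the mean of the other GSK4112 libraries, lay above the lowest control library, and the log2 difference was -0.64 ± 0.292 (adjusted p = 0.331). These levels rest on 90 to 350 fragments per library, and 33.3% of the transcript matches other genes, the closest a processed pseudogene.

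Fdps, the synthase of farnesyl diphosphate from which the sterol branch departs (ENSMUSG00000059743, chromosome 3, 89093588 to 89101959, minus strand), had 0.619, 0.387 and 0.328 FPKM with GSK4112 and 1.92, 1.32 and 0.971 FPKM in control. Every GSK4112 library lay below every control library, and the ratio of the means was 0.316, the lowest of the 31. It rests on 24 to 147 fragments per library and was under the filter on low values; without the filter its log2 difference was -0.72 ± 0.186 (adjusted p = 0.241). Of its longest transcript 91.4% matches 6 other genes at 95% identity or more, and 26.7% of its exon bases also belong to Gm43738 on the same strand, so the level of Fdps is uncertain. Ggps1, which makes the longer geranylgeranyl diphosphate for protein prenylation, had no steady direction (0.03, and -0.03 with median-of-ratios scaling), at 12.6, 12.5 and 12.1 FPKM with GSK4112 and 11.1, 12.6 and 12.7 FPKM in control.

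From squalene to lanosterol the groups of all 3 genes overlapped. Fdft1, squalene synthase, had 22.6, 20.9 and 22.8 FPKM with GSK4112 and 34.1, 20.7 and 22.0 FPKM in control, so that control replicate 1 alone stood above the rest. Its log2 difference of -0.17 turned to 0.04 without that library. Of the longest Fdft1 transcript 54.7% matches other genes at 95% identity or more, the closest a processed pseudogene, so its level is uncertain. Fdft1 also shares 18.3% of its exon bases with Ctsb on the opposite strand, which was at 169 to 228 FPKM, and without a stated strand setting reads of these genes cannot be told apart. Sqle, the squalene epoxidase, had 12.8, 7.50 and 7.63 FPKM with GSK4112 and 12.9, 9.20 and 10.4 FPKM in control. Pairs 2 and 3 carried its difference, at -0.26 and -0.40, while pair 1 was at -0.02. Lss, which closes the rings, had 3.50, 2.82 and 3.29 FPKM with GSK4112 and 4.25, 3.07 and 3.83 FPKM in control (adjusted p = 0.577).

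The steps from lanosterol to cholesterol held 2 of the 3 tested genes whose GSK4112 libraries all lay below control (22.2%, against 7.9% of all tested genes). In all 3 pairs 7 of 9 genes were lower (77.8%, against 18.6%), Cyp51 and Msmo1 only barely in pair 2 (-0.0005 and -0.0024). A log2 difference below 0 was found in 8 of 9 (88.9%, against 39.1%). The mevalonate genes were alike in this, with 4 of 5 lower in all 3 pairs and 5 of 5 below 0. Sc5d, the C5-desaturase that acts late in the pathway (ENSMUSG00000032018, chromosome 9, 42251595 to 42264256, minus strand), had 11.5, 9.18 and 8.44 FPKM with GSK4112 and 20.5, 13.8 and 14.9 FPKM in control. The groups did not overlap, the ratio of the means was 0.593, and the log2 difference was -0.69 ± 0.173 (95% interval -1.10 to -0.28, adjusted p = 0.124 in limma). It fell with the replicate block (adjusted p = 0.0134). It was also called with sample weights (0.0277; 2.96% of all tested genes were called lower there) and without both replicate 1 libraries (0.0198; 3.8%).

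Nsdhl, a dehydrogenase that removes the C4 carbons (ENSMUSG00000031349, chromosome X, 72918557 to 72958514, plus strand), had 11.9, 8.17 and 9.86 FPKM with GSK4112 and 17.7, 10.6 and 14.0 FPKM in control. GSK4112 replicate 1 alone lay above the lowest control library. The log2 difference was -0.45 ± 0.2 (adjusted p = 0.322), and within pairs -0.54, -0.34 and -0.47, and Nsdhl fell with the block (adjusted p = 0.0361). Dhcr7, the reductase that forms cholesterol in the last step of one route (ENSMUSG00000058454, chromosome 7, 143823145 to 143848410, plus strand), had 6.97, 6.16 and 7.03 FPKM with GSK4112 and 8.26, 8.27 and 8.67 FPKM in control. Its groups did not overlap, and unlike most of the sterol genes it was not high in control replicate 1. The log2 difference was -0.29 ± 0.0846 (95% interval -0.49 to -0.08, adjusted p = 0.166), and it was not called with the block (0.106).

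Cyp51, the lanosterol demethylase, had 15.4, 8.96 and 9.60 FPKM with GSK4112 and 20.4, 8.96 and 14.1 FPKM in control, equal in replicate 2 and lower with GSK4112 in the other pairs. Msmo1, the C4 methyl oxidase, had 19.4, 17.4 and 16.3 FPKM with GSK4112 and 30.5, 17.4 and 20.0 FPKM in control, with the same equality in replicate 2. Ebp, the sterol isomerase, had 15.0, 12.9 and 14.0 FPKM with GSK4112 and 22.0, 14.8 and 14.4 FPKM in control. In all 3 genes the groups overlapped and control replicate 1 was the highest library, at 1.77, 1.63 and 1.51 times the mean of the other controls.

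Hsd17b7, the ketosteroid reductase of the C4 steps, went against its neighbours in replicate 1 and with them elsewhere. It had 26.9, 12.4 and 12.1 FPKM with GSK4112 and 18.3, 13.7 and 16.7 FPKM in control, so its pair differences were 0.53, -0.14 and -0.43 and its log2 difference -0.01 ± 0.3. Tm7sf2 and Lbr both encode a C14 reductase. Tm7sf2, higher with GSK4112 in pair 1 alone, had 6.40, 2.93 and 3.20 FPKM with GSK4112 and 5.09, 3.09 and 3.26 FPKM in control, and shares 12.1% of its exon bases with Vps51 on the same strand. Lbr, whose protein sits in the inner nuclear membrane and was lower in all 3 pairs, had 5.32, 3.50 and 2.80 FPKM with GSK4112 and 5.47, 3.69 and 4.52 FPKM in control. Neither passed (adjusted p = 0.93 and 0.658).

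In the polyprenyl branch 0 of 3 tested genes were lower in all 3 pairs, against 18.6% of all tested genes. With 3 genes this cannot be told from that share, and Pdss1, which was not tested, was lower in all 3 pairs. Dhdds and Nus1 encode the subunits of the prenyltransferase that makes the dolichol chain. Dhdds had 14.4, 14.0 and 15.4 FPKM with GSK4112 and 12.9, 13.8 and 12.2 FPKM in control. Its groups did not overlap and it was higher in all 3 pairs, though by only 0.0164 in pair 2. The log2 difference of 0.16 ± 0.082 was not called (95% interval -0.04 to 0.36, adjusted p = 0.382) and was 0.10 with median-of-ratios scaling. Nus1 differed by 0.01 (-0.05 with median-of-ratios scaling), at 25.6 ± 2.61 FPKM with GSK4112 and 25.3 ± 2.14 FPKM in control. Pdss1 and Pdss2 encode the subunits of the synthase of the coenzyme Q tail and were low in all libraries. Pdss1 had 0.849, 0.967 and 0.867 FPKM with GSK4112 and 1.11, 0.982 and 1.16 FPKM in control, on 61 to 86 fragments and under the filter, with every GSK4112 library below every control library. Pdss2 was at 1.56 ± 0.188 FPKM with GSK4112 and 1.78 ± 0.0831 FPKM in control (adjusted p = 0.652).

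Among the control genes, Srebf2, which encodes SREBP2 (ENSMUSG00000022463, chromosome 15, 82147181 to 82205379, plus strand), had 36.9, 34.6 and 34.9 FPKM with GSK4112 and 46.2, 40.1 and 44.6 FPKM in control. The groups did not overlap and the libraries of each group lay close together, on 4113 to 6023 fragments. The log2 difference was -0.29 ± 0.083 (95% interval -0.49 to -0.09, adjusted p = 0.156), and with the block it missed the threshold too (adjusted p = 0.0914). Its escort Scap, whose values are given above, was higher in all 3 pairs (log2 difference 0.17 ± 0.098, adjusted p = 0.431), and 13.2% of its exon bases are shared with a transcript on the opposite strand. The FPKM of Srebf2 was thus 0.444, 0.501 and 0.473 times that of Scap with GSK4112 and 0.676, 0.647 and 0.642 times in control, without overlap. Since Srebf2 alone did not overlap and Scap differed the other way, this is no separate result. Neither gene was called, and the share of gene ratios that separate the groups was not counted.

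The INSIG proteins retain SCAP in the endoplasmic reticulum. Insig1, itself a target of SREBP2 (ENSMUSG00000045294, chromosome 5, 28071363 to 28078662, plus strand), had 9.72, 5.53 and 6.31 FPKM with GSK4112 and 13.2, 6.91 and 10.4 FPKM in control, lower in all 3 pairs. Its log2 difference was -0.45 ± 0.264 (adjusted p = 0.445 without and 0.055 with the block). Insig2, the form known to be less dependent on SREBP2, had 16.9, 15.7 and 14.3 FPKM with GSK4112 and 14.1, 19.6 and 12.5 FPKM in control, with no common direction among the pairs. The ratio of Insig1 to Insig2 was 0.576, 0.352 and 0.44 with GSK4112 and 0.938, 0.353 and 0.836 in control, so it was equal in replicate 2. Of the protease genes, Mbtps1 was at 23.6 ± 1.94 FPKM with GSK4112 and 24.0 ± 1.59 FPKM in control, and Mbtps2 at 6.99 ± 0.492 FPKM with GSK4112 and 6.46 ± 0.33 FPKM in control. The 95% interval of their log2 difference reached from -0.25 to 0.20 and from -0.11 to 0.31, and Mbtps2 shares 28.4% of its exon bases with Yy2 on the same strand.

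Stard4 encodes a carrier that moves sterol between membranes. It had 3.71, 2.13 and 2.14 FPKM with GSK4112 and 4.66, 2.91 and 3.67 FPKM in control, lower in all 3 pairs (log2 difference -0.39 ± 0.212, adjusted p = 0.409). It shared with Acat2, Cyp51, Sqle and Insig1 the high replicate 1, which was 1.74 times the mean of its fellows with GSK4112 and 1.42 times in control. Replicate 1 was the highest GSK4112 library in 22 of the 29 tested genes (75.9%) and the highest control library in 21 (72.4%), against 41.9% and 43.2% of all tested genes.

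Genes around the pathway were read for comparison, by lists also made with earlier results known. Over all tested genes 1.03% were called, so a list of 8 or 9 genes without a call does not stand out. A log2 difference below 0 was found in 39.1% of all tested genes. With the block 3.82% of them were called lower and 3.07% higher. None of 8 SREBP targets outside sterol synthesis was called, and 6 of 8 had a log2 difference below 0 (median -0.20). The most abundant was Scd2, at 321, 244 and 227 FPKM with GSK4112 and 263, 253 and 196 FPKM in control. With the block Fads2, a fatty acid desaturase, fell; it had 24.5, 20.5 and 20.7 FPKM with GSK4112 and 36.1, 29.9 and 34.8 FPKM in control (adjusted p = 0.0676 without and 0.017 with the block). In the machinery of sterol-regulated degradation 0 of 9 genes were called and 3 of 9 lay below 0 (5 with median-of-ratios scaling), and Vcp, the extraction ATPase, fell with the block (68.3, 59.0 and 60.9 FPKM with GSK4112, 90.0, 80.8 and 83.5 FPKM in control, adjusted p = 0.038). Of 8 genes of dolichol use 0 were called and none had a difference below 0 (1 with median-of-ratios scaling, median 0.24 and 0.19); Alg2 was the most abundant at 21.3 to 25.2 FPKM, and Alg1, a mannosyltransferase, rose with the block (15.0, 15.3 and 17.2 FPKM with GSK4112, 10.7, 9.31 and 11.8 FPKM in control, adjusted p = 0.0219). Protein prenylation (0 of 9 called, median 0.03 and, with median-of-ratios scaling, -0.03, Fnta the most abundant at 27.0 to 36.0 FPKM) and the ring steps of coenzyme Q (0 of 9 called, median 0.01 and, with that scaling, -0.05, Coq9 the most abundant at 14.8 to 18.2 FPKM) had no calls with or without the block.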

How the data were processed

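RNA of cultured mouse granulosa cells was measured in 3 GSK4112 and 3 control samples, grouped by their titles. The deposited table, which the authors name FPKM (fragments scaled to exon length and library size), holds 27151 Ensembl IDs, with 1 column per sample matched by name. The submitters' processing notes name GRCm38 as the build. Details not given in the sources used here are aligner, counter, annotation release and strand setting. Symbols, positions and exon lengths came from GENCODE M21 (GRCm38), in which 27098 IDs were found.

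Library totals were read from the FPKM steps: with 16559256 to 18158273 fragments, a whole number, to within 0.01, came out for 92.8 to 93.1% of values under 500 fragments, so 1 fragment on 1 kb of exons is worth 0.0551 to 0.0604 FPKM. Genes with a mean of at least 1 FPKM over the 6 samples (12181) were tested 2-sided on log2(FPKM + 1) by limma (version 3.58.1, R 4.3.3), letting the variance follow a trend with the mean, and p was adjusted over all of them by Benjamini-Hochberg. Log2 differences are GSK4112 minus control on that scale, where low genes appear to change less than they do, with limma's SE. An exact permutation test of 3 against 3 cannot go below 0.1 and was not used. The procedure was checked on simulated data.

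Replicate numbers 1 to 3 occur in both groups. After subtraction of each group's mean, samples of equal number correlated over genes at 0.665, 0.326 and 0.213, each over the limit of 0.1, so limma's result with replicate number as a block is printed beside any call it alters. No label states this pairing, which rests on these correlations. GSK4112 replicate 2 correlated better with control replicate 3 (0.53) and GSK4112 replicate 3 with control replicate 2 (0.357), so the swapped pairs passed the limit too. After the subtraction the samples of a group sum to 0, and a match of replicate 1 alone raises the correlations among replicates 2 and 3 together. The limit therefore cannot decide how replicates 2 and 3 pair, and a block with these swapped was not tested.

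The genes, lists and tests were chosen with earlier results of these data known, and all 31 genes are named by rule. Copies were sought with blastn among GENCODE M21 transcripts, at 95% identity over at least 100 bases. The alternatives were other pseudocounts, filters and scalings, limma without the trend, robust or with sample weights, the replicate block, samples left out, and limma-voom on recovered fragments.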

Additional observations from a re-analysis of the deposited data

How the results depend on the processing

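The genes tested had 0 calls under 15 of the 18 alternatives, with 23 of the 29 tested at a mean of at least 5 FPKM and all 31 without a filter. The replicate block, in which same-numbered libraries are paired, called 3 (Acat2, Nsdhl and Sc5d), sample weights called 1 (Sc5d) and leaving out both replicate 1 libraries called 1 (Sc5d); with single libraries left out the count was 0 to 0. Their median log2 difference was -0.17 and stayed below 0, from -0.30 to -0.07 with single libraries left out. Over all genes 126 were called, 50 higher and 76 lower. The count was 26 without a filter on low values, where more genes are tested, 839 with the block, 830 with sample weights (470 higher, 360 lower) and 856 without both replicate 1 libraries; by median-of-ratios the split was 44 higher against 117 lower. With single libraries left out it was 0 to 153: 0 without control replicate 3, GSK4112 replicate 2 or GSK4112 replicate 3 (1843, 1224 and 1318 at an unadjusted p under 0.05), and 8 without control replicate 2. The cause was not tested.

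Of 516 values for single genes, 29 in 7 genes changed sign and 5 became calls. With both replicate 1 libraries left out Fdft1 was at 0.0291, Ggps1 at -0.0409, Insig2 at -0.0572, Mbtps1 at 0.0364, Nus1 at -0.0047 and Tm7sf2 at -0.0392. With sample weights Ggps1 was at -0.0158, Mbtps1 at 0.00818, Nus1 at -0.00556 and Tm7sf2 at -0.0126. With median-of-ratios scaling Ggps1 was at -0.0289, Insig2 at -0.0180 and Nus1 at -0.0484. With single libraries left out the range was -0.302 to 0.0448 for Fdft1, -0.0296 to 0.0633 for Ggps1, -0.370 to 0.175 for Hsd17b7, -0.0879 to 0.218 for Insig2, -0.0707 to 0.0397 for Mbtps1, -0.0626 to 0.0757 for Nus1 and -0.221 to 0.249 for Tm7sf2. Judged by the highest library, depth limits Pdss1, Fdps, Pdss2 and Pmvk most, with at most 86, 147, 186 and 230 fragments per library. Idi1 had as few as 90 fragments, in GSK4112 replicate 3, fewer than the lowest library of Pdss2 (145) or Pmvk (153).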
